A study of Sus scrofa with 19 samples.

Results

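The smooth muscle contractile genes *ACTG2*, *ACTA2*, *MYH11*, *TAGLN*, *CNN1* and *MYL9* were described in the *longissimus dorsi* (LD) muscle of 19 Duroc pigs. A probe set, the group of oligonucleotides that reads 1 transcript on the array, was taken when the platform annotation gave it exactly 1 of these gene symbols. This rule found 6 of the 23999 probe sets tested, which cover 5 of the 6 genes. *ACTG2* had 2 probe sets, *ACTA2*, *TAGLN*, *CNN1* and *MYL9* had 1 each, and no probe set was named as *MYH11*, the smooth muscle myosin heavy chain, so its level was not analysed here.

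Smooth muscle cells wrap the arteries and veins that feed a muscle, and their thin filaments are built from their own pair of actins. In a piece of skeletal muscle they are a small minority beside the muscle fibres, so that their transcripts are commonly read as a measure of vessel wall. *ACTA2* encodes the vascular smooth muscle actin and *ACTG2* the enteric one, which vessels also carry. *CNN1* (calponin) and *TAGLN* (transgelin) bind these actin filaments, and *MYL9* is the regulatory light chain whose phosphorylation sets smooth muscle myosin in motion. Myofibroblasts and pericytes can express several of these genes too.

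The pigs were barrows of a commercial Duroc line, slaughtered at 190 days of age after the same standard feeding. The LD HIGH group (10 pigs) and the LD LOW group (9 pigs) were the opposite ends of a ranking of the herd on fat deposition and fat composition according to the labels, and no pig received a treatment. The study's methods instead describe randomly chosen pigs for its comparison of muscles, and the groups here follow the labels. RNA of each pig was hybridised to 1 porcine expression array, so each replicate is a pig. The herd comprised several half-sib families, and family, laboratory batch and scan time of each pig are not in the labels, so they were not examined.

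Values are deposited log2 signals, in which 1 unit is a doubling. Medians of the 19 arrays lay between 3.44 and 3.60, and any 2 arrays correlated with r between 0.970 and 0.993 over all probe sets. The 17 probe sets that read tag sequences, which should find no pig transcript, averaged 2.11, and the highest of their means was 2.56. A probe set counted as above background on an array when it exceeded the highest tag signal of that array, which lay between 2.51 and 2.72. All 6 probe sets were above background on all 19 arrays. The fibre markers *MYH2*, *MYH7* and *CKM* averaged 15.9, 14.8 and 15.3, near the top of the array's range, as the labelled tissue would have it. Signals of different probe sets depend on their oligonucleotides, so that a higher signal of 1 gene than of another is not a higher level of its transcript.

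Of the actins, *ACTA2* (Ssc.941.1.S1_at, chromosome 14 of the RefSeq annotation) had its lowest, median and highest signal at 10.65, 11.22 and 12.43 in LD HIGH and at 10.22, 11.15 and 11.86 in LD LOW. The ranges overlapped widely, with 5 of the 10 LD HIGH pigs above the LD LOW mean and 3 above its highest pig. The means were 11.34 ± 0.57 (SD, n = 10) and 11.14 ± 0.47 (SD, n = 9), a difference of 0.20 log2 units (95% CI -0.27 to 0.67). The corresponding fold was 1.15, and the limma fit over all probe sets gave an unadjusted p = 0.381 and an adjusted p = 0.993.

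*ACTG2* varied widely between pigs on its main probe set (Ssc.10316.1.S1_at, chromosome 3), the one with the higher mean signal. Lowest, median and highest signals were 5.43, 6.59 and 8.44 in LD HIGH and 4.95, 6.76 and 7.81 in LD LOW. The span of 3.49 log2 units over the 19 pigs is an 11.2-fold range, and the SD of 0.86 was larger than that of 98.1% of all probe sets. The span lay inside the groups rather than between them: the means were 6.88 ± 0.93 (SD, n = 10) and 6.61 ± 0.81 (SD, n = 9), and only 4 of the 10 LD HIGH pigs exceeded the LD LOW mean. The difference was 0.27 (95% CI -0.52 to 1.06; limma adjusted p = 0.993), which on the linear scale is a fold of 1.20 with an interval of 0.697 to 2.08.

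The second *ACTG2* probe set (Ssc.6145.1.A1_at) gave 5.31, 6.22 and 6.81 in LD HIGH and 5.62, 6.19 and 6.69 in LD LOW for its lowest, median and highest pig. Its group means were 6.11 ± 0.48 (SD, n = 10) and 6.18 ± 0.37 (SD, n = 9). Here the sign of the difference was negative, -0.07 (95% CI -0.47 to 0.33; limma adjusted p = 0.993), and the groups overlapped over nearly their whole range.

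Among the filament-binding genes, *TAGLN* (Ssc.11913.1.S1_at, chromosome 9) showed the largest difference between groups of the 6 probe sets. Its lowest, median and highest signals were 8.05, 8.81 and 9.56 in LD HIGH and 7.86, 8.34 and 9.25 in LD LOW. The means were 8.79 ± 0.48 (SD, n = 10) and 8.43 ± 0.41 (SD, n = 9), and 7 of the 10 LD HIGH pigs were above the LD LOW mean. The difference of 0.37 (95% CI -0.05 to 0.78), a fold of 1.29, had an unadjusted p = 0.0801 and an adjusted p = 0.993 in the limma fit, which ranked it 1452nd of the 23999 probe sets by p.

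*CNN1* (Ssc.9013.1.S1_at, chromosome 2) was the widest ranging of the members. Its lowest, median and highest signals were 6.54, 8.32 and 9.11 in LD HIGH and 5.66, 8.30 and 9.25 in LD LOW, and the 12.04-fold range over the 19 pigs came largely from LD LOW pig 1444, at 5.66, and LD HIGH pig 8697, at 6.54. The group means of 8.17 ± 0.76 (SD, n = 10) and 8.15 ± 1.08 (SD, n = 9) differed by 0.02 (95% CI -0.81 to 0.85; limma adjusted p = 0.998). Without pig 1444 the difference was -0.29, and leaving out any 1 of 9 pigs turned its sign.

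*MYL9* (Ssc.9125.1.S1_at, chromosome 17) had the smallest SD of the 6 probe sets, at 0.33 over the 19 pigs. Its lowest, median and highest signals were 5.66, 6.08 and 6.95 in LD HIGH and 5.71, 6.07 and 6.65 in LD LOW. The means, 6.11 ± 0.37 (SD, n = 10) and 6.16 ± 0.31 (SD, n = 9), differed by -0.04 (95% CI -0.37 to 0.29; limma adjusted p = 0.993).

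**Figure D1:**
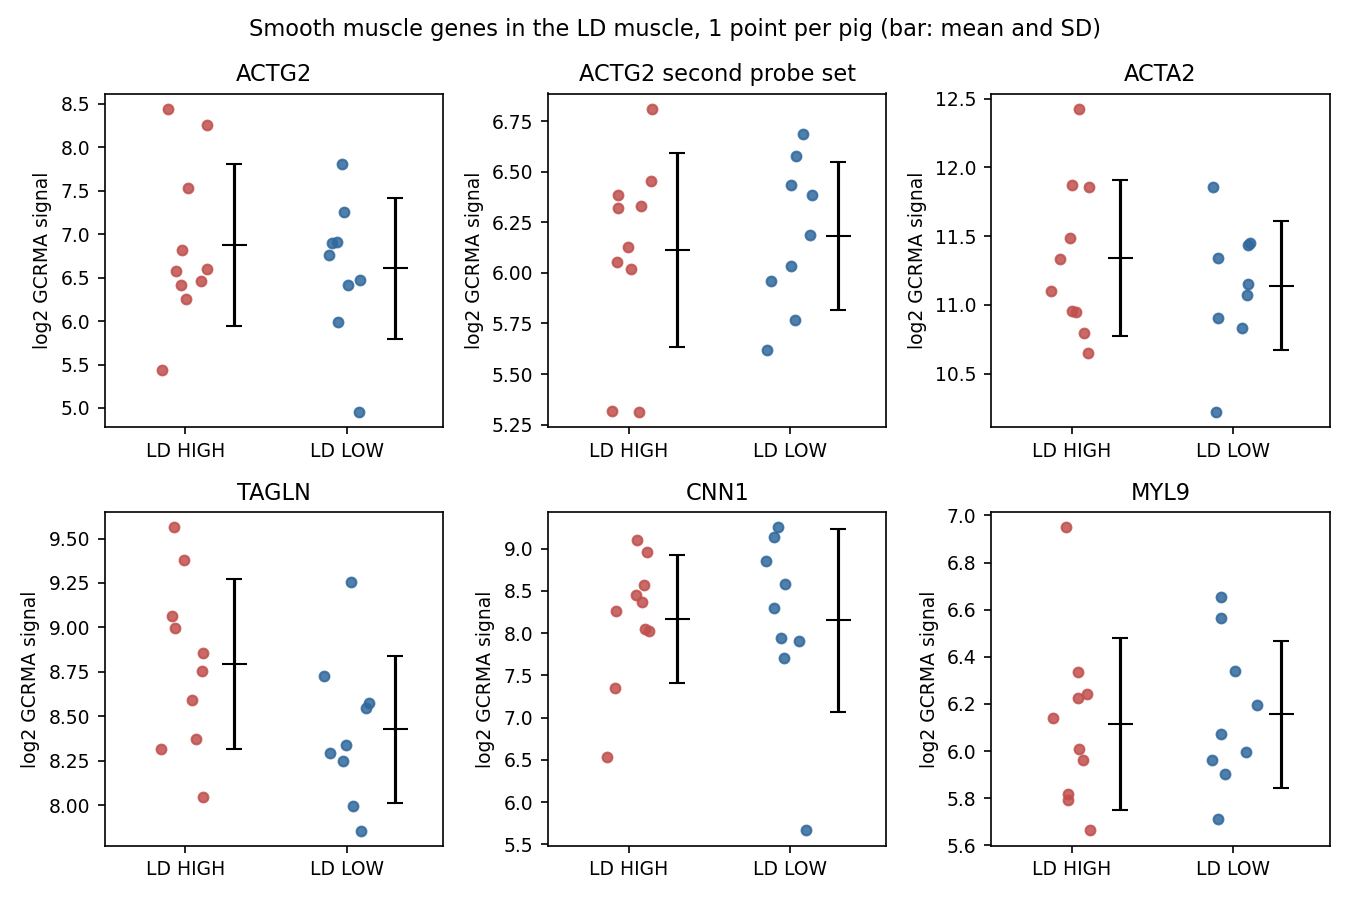
The log2 GCRMA signal of each pig is plotted for the 6 probe sets of the smooth muscle genes, with LD HIGH (10 pigs) and LD LOW (9 pigs) side by side. Bars give the mean and SD of a group, and each panel has its own vertical scale. The groups overlap in all 6 panels, and the lowest pig of the *CNN1* panel, at 5.66, is LD LOW pig 1444.

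Across the array, 0 of the 6 probe sets and 0% of the 23999 tested passed an adjusted p of 0.05 in limma. An unadjusted p under 0.05 was reached by 3.51% of all probe sets (843) and by 0 of the 6 members, whose p ran from 0.0801 to 0.964. The mean was higher in LD HIGH for 41.3% of all probe sets (9923), and for 4 of the 5 genes and 4 of the 6 probe sets of the smooth muscle set. The median difference over the 5 genes was 0.20 log2 units, against -0.0063 over all probe sets. Setting the actins against each other, the LD HIGH pigs had an *ACTG2* minus *ACTA2* signal of -4.47 ± 0.53 (SD, n = 10) and the LD LOW pigs one of -4.53 ± 0.39 (SD, n = 9), a difference of 0.07 (exact two-sided permutation test over 92378 splits, p = 0.759). As these are whole-muscle samples, fewer cells of a type and less RNA per cell cannot be told apart.

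Pigs also differed in their level over the 5 genes together. Taken as the mean of the 5 genes' deviations from their means over 19 pigs, the level ran from -0.57 to 0.94 in LD HIGH and from -1.23 to 0.70 in LD LOW. Pigs 1533, 1536 and 1444 stood out at the ends, and were singled out after their values were seen. LD HIGH pigs 1533 and 1536 were the highest pair for *ACTG2*, at 8.44 and 8.25, and for *TAGLN*, at 9.38 and 9.56. Pig 1533 was also first for *ACTA2*, at 12.43, and pig 1536 first for *MYL9*, at 6.95. LD LOW pig 1444 was last for *ACTG2* (4.95), *ACTA2* (10.22) and *CNN1* (5.66), and 18th of 19 for *TAGLN* (7.998), while its *MYL9*, at 5.90, was 15th. All 5 genes were above their mean in 3 pigs (1533, 1536 and LD LOW pig 2187), and all were below it in 2 (1444 and LD LOW pig 1550), while the other 14 pigs had genes on both sides. LD HIGH pig 8697 broke the pattern, with deviations of -1.62 for *CNN1* and -1.32 for *ACTG2* but 0.44 for *TAGLN*.

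**Figure D2:**
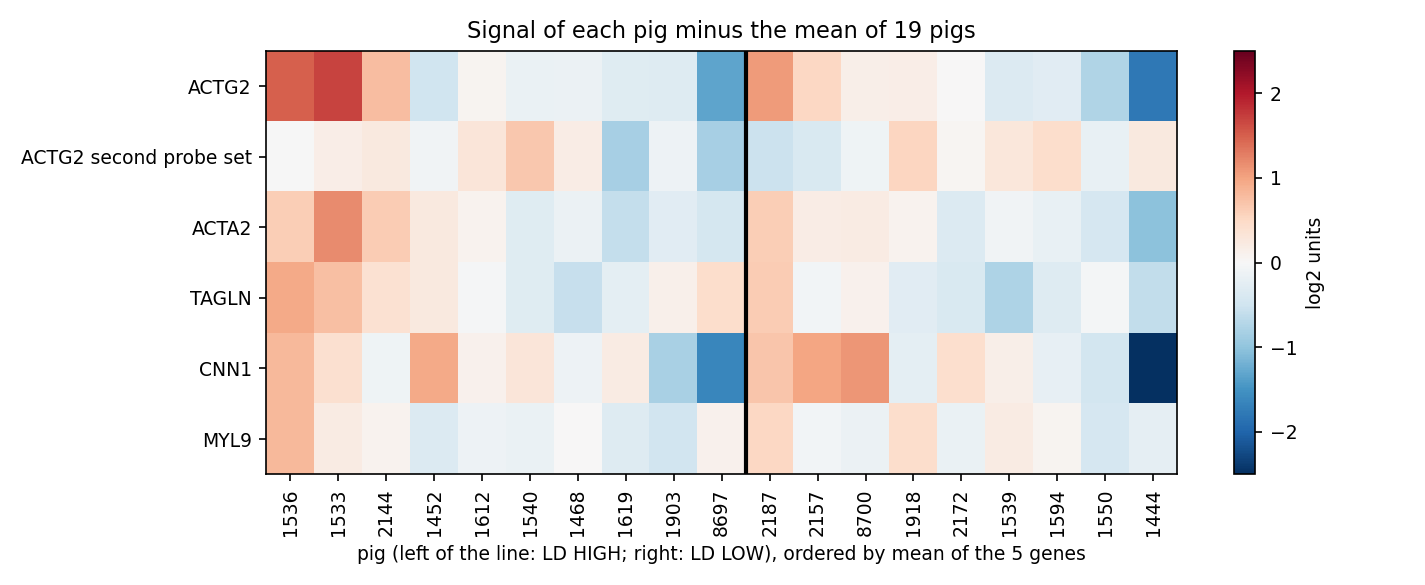
Each cell is the log2 signal of a probe set in a pig minus the mean of the 19 pigs (red above, blue below; scale in log2 units), with LD HIGH pigs left of the line and LD LOW pigs right of it, ordered within a group by their mean over the 5 genes. The 5 genes keep 1 direction in pigs 1533, 1536, 2187, 1444 and 1550 and are mixed in the other 14, as in pig 1452, which ranked 3rd for *CNN1* but 16th for *ACTG2*.

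The 5 genes co-varied over the 19 pigs, with the second *ACTG2* probe set treated apart. Pearson's r was positive for all 10 pairs, also within LD HIGH and within LD LOW, and 7 pairs passed an adjusted p of 0.05 (permutation test with 100000 resamples, Benjamini-Hochberg adjustment over the 10 pairs). By Spearman's rho, 6 pairs did. Mean r was 0.572 over the pairs, 0.532 within LD HIGH and 0.645 within LD LOW. Within the groups alone, by Pearson's r, 1 pair passed in LD HIGH and 3 in LD LOW. The first principal component of the 5 standardised genes held 67.0% of their variance.

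The closest pair were the actins, *ACTG2* and *ACTA2*, with r = 0.902 (permutation p = 1e-05, the smallest these resamples can give; adjusted p = 0.0001) and rho = 0.793 (permutation p = 0.00015). It was 0.865 within LD HIGH and 0.956 within LD LOW, and 0.853 without the 2 pigs farthest from the *ACTG2* median. Each was the probe set most like the other among the 23998 others. A log2 unit of *ACTA2* went with 1.504 units of *ACTG2*. Actins are nearly identical over their coding sequence and cross-hybridisation between their probe sets was not tested, since oligonucleotide sequences were not used here; *ACTA1*, the skeletal actin, had no named probe set.

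**Figure D3:**
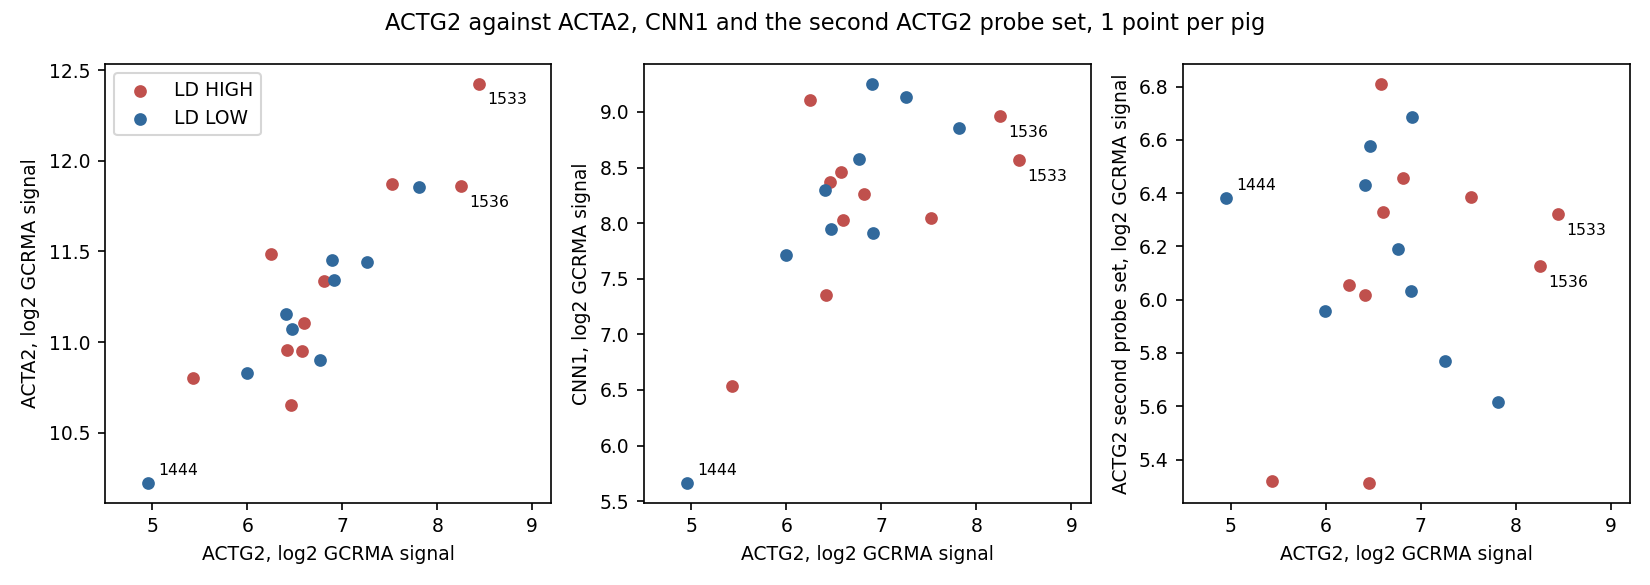
The log2 GCRMA signal of *ACTG2* (horizontal axis) is plotted against *ACTA2*, *CNN1* and the second *ACTG2* probe set (vertical axes), 1 point per pig, red for LD HIGH and blue for LD LOW. Points rise together in the first (r = 0.902) and second panel (r = 0.706) and not in the third (r = 0.0883); pigs 1444, 1533 and 1536 are named.

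The partners of the actins came next. *ACTG2* and *CNN1* had r = 0.706 (permutation p = 0.00062, rho = 0.567, permutation p = 0.0123), and *ACTA2* and *TAGLN* r = 0.705 (permutation p = 0.00063, rho = 0.591, permutation p = 0.00899). Without the 2 pigs farthest on the actin these were 0.756 and 0.585, and both remained under a permutation p of 0.05. *ACTA2* and *CNN1* had r = 0.638 (permutation p = 0.00312, rho = 0.589, permutation p = 0.00871), or 0.536 on leaving out the farthest pair. Without pig 1444 alone it was 0.486 and its adjusted permutation p was 0.0597, so that this call rested on 1 pig. *ACTG2* and *TAGLN* had r = 0.617 (permutation p = 0.00477, rho = 0.458, permutation p = 0.0512), which fell to 0.355 (permutation p = 0.161) without pigs 1533 and 1536 and so rested on them.

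*MYL9*, the light chain, also passed with both actins. It had r = 0.609 with *ACTG2* (permutation p = 0.00599, rho = 0.602, permutation p = 0.00786) and r = 0.578 with *ACTA2* (permutation p = 0.00975, rho = 0.554, permutation p = 0.0153). The first became 0.452 (permutation p = 0.0687) without pigs 1533 and 1536, and without 1536 alone its adjusted permutation p was 0.0543. The second became 0.619 (permutation p = 0.00771) without pigs 1533 and 1444. An r of this size was common for *MYL9*, which had r above 0.5 with 25.1% of all other probe sets, and among these *ACTG2* ranked 2582nd and *ACTA2* 3595th.

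The 3 pairs without an actin did not pass. *TAGLN* and *MYL9* had r = 0.435 (permutation p = 0.0623, rho = 0.263, permutation p = 0.275), with 0.653 within LD HIGH and 0.274 within LD LOW, a difference between groups that was not tested. *TAGLN* and *CNN1*, the pair of related calponin-family proteins, had r = 0.297 (permutation p = 0.218, rho = 0.289, permutation p = 0.227). *CNN1* and *MYL9* had r = 0.228 (permutation p = 0.344, rho = 0.156, permutation p = 0.522). Without the 2 farthest pigs these were 0.124, 0.190 and 0.268.

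Taking out pigs 1444, 1533 and 1536 together, a choice made after seeing the data, left a mean r of 0.350, and 1 pair, *ACTG2* and *ACTA2* (r = 0.779), under an adjusted permutation p of 0.05. The other 6 pairs that had passed no longer did, with 16 pigs in place of 19.

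**Figure D4:**
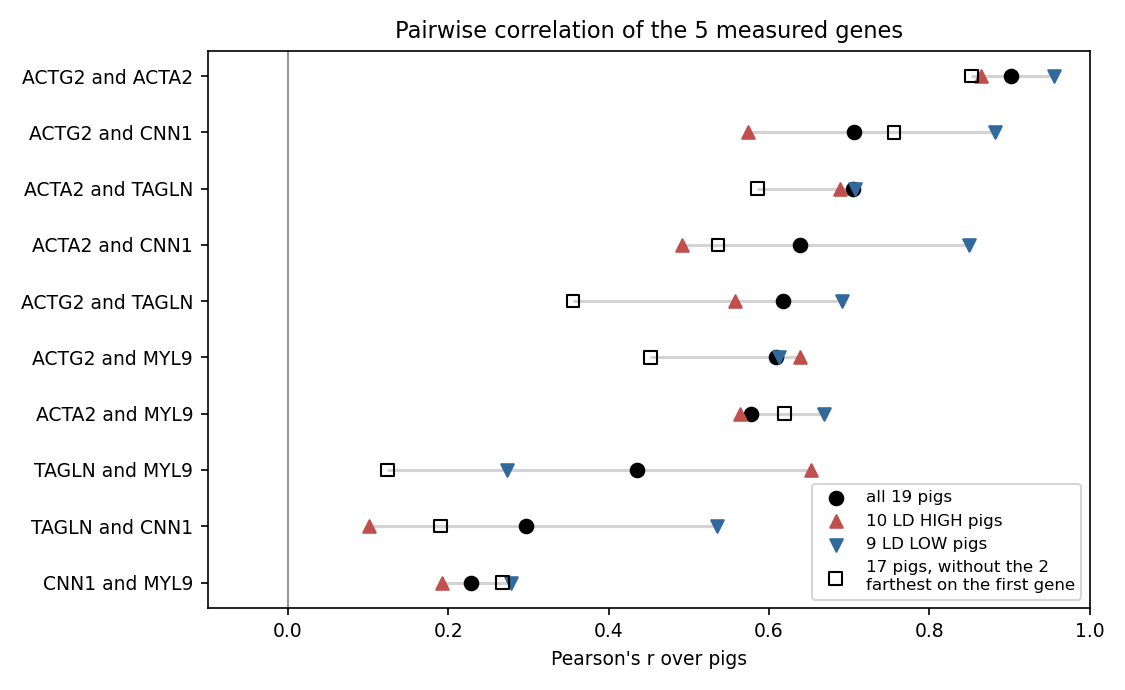
Pearson's r over pigs is plotted for the 10 pairs of the 5 measured genes, for all 19 pigs (black), the 10 LD HIGH pigs (red), the 9 LD LOW pigs (blue) and without the 2 pigs farthest from the median of the first gene (open squares). Pairs are ordered by r over all pigs, from 0.902 for the actins to 0.228 for *CNN1* and *MYL9*, and no point is below 0.

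The second *ACTG2* probe set did not share in this. Its r was 0.0883 with the first *ACTG2* probe set (permutation p = 0.717, rho = 0.105, permutation p = 0.665) and 0.0983 with *ACTA2* (permutation p = 0.687, rho = 0.114, permutation p = 0.641). With *TAGLN* r was -0.362 (permutation p = 0.128, rho = -0.442, permutation p = 0.0588). Leaving out the farthest pigs gave -0.215, -0.227 and -0.450 for these 3 relations. Within the groups, its r with the first probe set was 0.449 in LD HIGH and -0.478 in LD LOW, a difference that was not tested. Pig 1444, lowest of all on the first probe set, was seventh from the top on this one, at 6.38. With *CNN1* and *MYL9* r was -0.0165 (permutation p = 0.947, rho = -0.195, permutation p = 0.423) and 0.102 (permutation p = 0.678, rho = 0.202, permutation p = 0.408), and adjusted over the 5 relations the smallest permutation p was 0.639. With this probe set in place of the first, mean r over the 10 pairs was 0.270 and 3 pairs passed. Which of the 2 probe sets reads the *ACTG2* transcript in LD was not tested, so statements on *ACTG2* above are statements on the first.

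Some of the members moved with a measure of RNA integrity. Control transcripts (actin, EF1A and GAPDH) are read on the array at their 3' and their 5' end, and a larger 3' minus 5' signal is commonly read as a sign of shorter RNA. The 10 LD HIGH pigs had 1.04 ± 0.12 (SD), the 9 LD LOW pigs 1.07 ± 0.24 (SD), and pig 1444 had the highest, at 1.61. *CNN1* was lower where this signal was larger, with r = -0.744 (permutation p = 0.00102, adjusted p = 0.0122 over 12 relations, rho = -0.539, permutation p = 0.0184). *ACTG2* had r = -0.586 (permutation p = 0.00999, adjusted p = 0.0400, rho = -0.498, permutation p = 0.0320). Without pigs 1444 and 2157, the farthest on this measure, they were -0.422 (permutation p = 0.0894) and -0.351 (permutation p = 0.168), so both rested on those pigs. *ACTA2* (r = -0.533, adjusted permutation p = 0.0615, rho = -0.404, permutation p = 0.0889) and *TAGLN* (r = -0.394, adjusted permutation p = 0.159, rho = -0.360, permutation p = 0.130) had the same sign and did not pass. *MYL9* had -0.0871 (adjusted permutation p = 0.783, rho = 0.0474, permutation p = 0.848) and the second *ACTG2* probe set 0.248 (adjusted permutation p = 0.406, rho = 0.323, permutation p = 0.176).

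With this signal removed by regression, the actins kept r = 0.860 (adjusted permutation p = 0.0001), and *ACTA2* and *TAGLN* 0.637 (adjusted permutation p = 0.0107). The pairs of *CNN1* with *ACTG2* and with *ACTA2* were then 0.499 and 0.428 and no longer passed (adjusted permutation p = 0.0503 and 0.0863), and *TAGLN* and *CNN1* had r = 0.0052. Mean r was 0.495, and 5 pairs passed. With the signal of EF1A and GAPDH alone, a choice made after seeing the data because the third control is itself an actin, *ACTG2* and *CNN1* had r = 0.551 and passed (adjusted permutation p = 0.0292). *ACTG2* and *TAGLN* then lost their call (r = 0.453) and *ACTA2* and *CNN1* did not regain theirs (r = 0.462, adjusted permutation p = 0.0750 for both), and *TAGLN* itself had r = -0.546 with that signal (adjusted permutation p = 0.0487, rho = -0.575, permutation p = 0.0116). Without pigs 1444 and 2157, *TAGLN* had -0.599 with that signal (permutation p = 0.0123), so its relation did not rest on them. *CNN1* and *ACTG2* went from -0.645 and -0.548 to -0.228 and -0.304 (permutation p = 0.385 and 0.237).

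*MYL9* moved instead with the median of the array, a measure of overall signal, with r = 0.654 (permutation p = 0.00323, adjusted p = 0.0194, rho = 0.504, permutation p = 0.0303). Without LD HIGH pig 1536 and LD LOW pig 1918, the arrays with the highest medians, r was 0.272 (permutation p = 0.291), so the relation rested on them. With the median, *ACTG2* had r = 0.467 and *TAGLN* 0.459 (adjusted permutation p = 0.0928 for both), *ACTA2* 0.345, *CNN1* 0.0928 and the second *ACTG2* probe set 0.0592 (adjusted permutation p = 0.222, 0.783 and 0.811). Spearman's rho for these 5 lay between 0.0193 and 0.467, with adjusted permutation p of 0.139 or more. Of the 12 relations, 3 passed by r and 0 by rho, for which the smallest adjusted permutation p was 0.128. The part of RNA integrity and of overall signal in the co-variation was otherwise not tested.

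**Figure D5:**
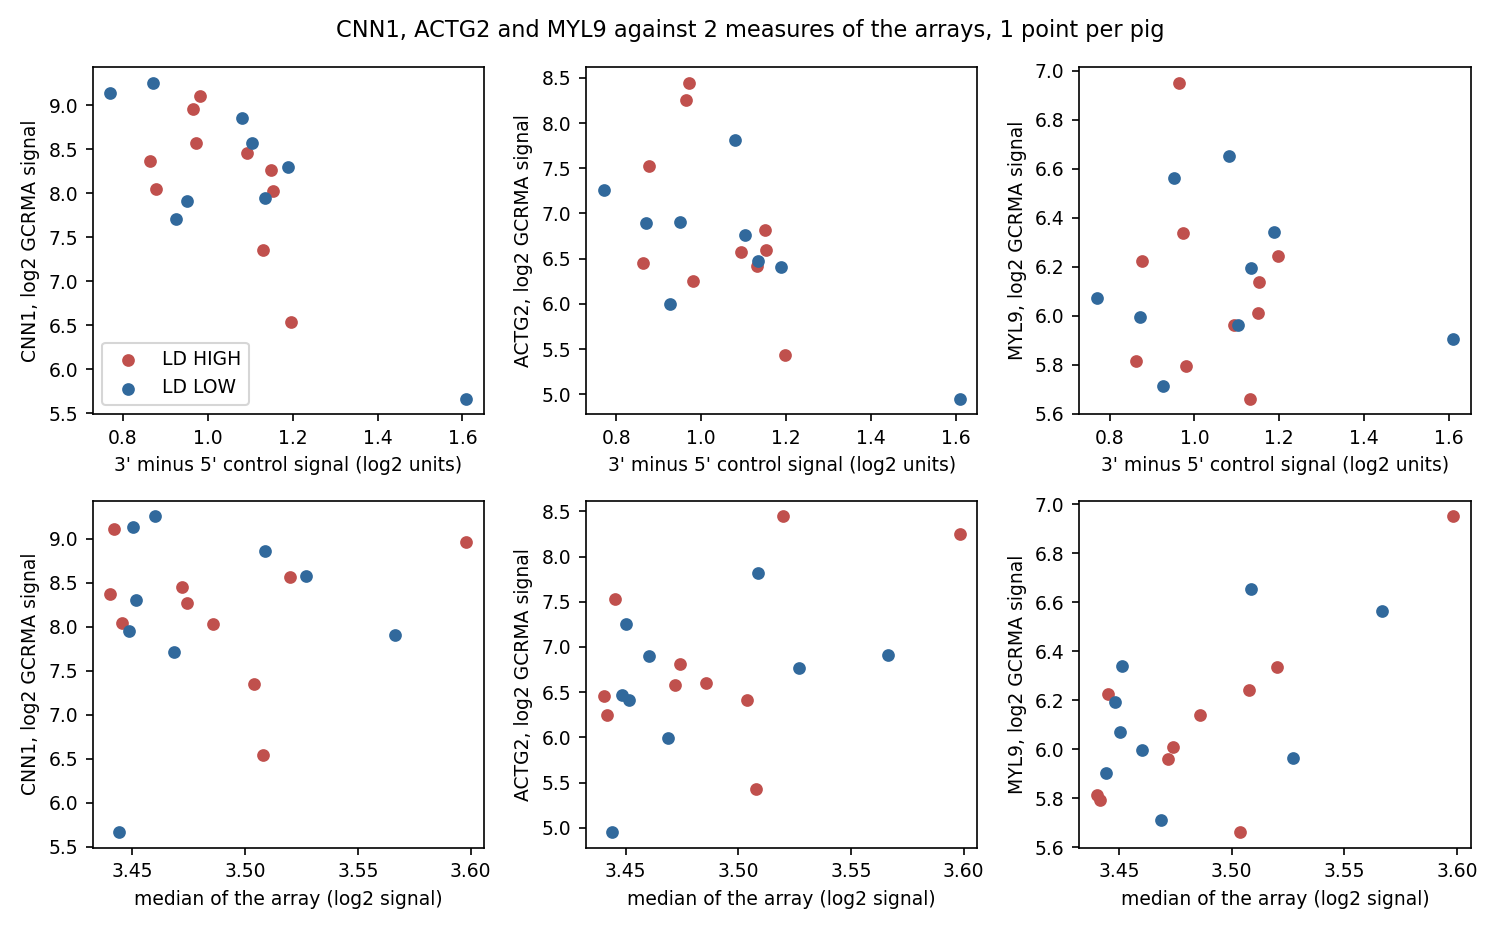
The log2 GCRMA signals of *CNN1*, *ACTG2* and *MYL9* (vertical axes) are plotted against the 3' minus 5' control signal (top row, log2 units) and the median of the array (bottom row, log2 signal), 1 point per pig, red for LD HIGH and blue for LD LOW. The pig at the far right of the top row, at 1.61, is LD LOW pig 1444, and the pig at the far right of the bottom row, at 3.60, is LD HIGH pig 1536.

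The genes whose signals most resembled each member over the 19 pigs, by Pearson's r, are given as a description with no test, as they were picked by size. The order is among probe sets with a single gene symbol, and some probe sets without one ranked higher, 3 of them above the first gene named for *CNN1*. *ACTG2* was most like *ACTA2* (0.902), *ENO1* (0.804), *KCNMB1* (0.792), *S100A10* (0.786) and *FBL* (0.778). *KCNMB1*, the beta subunit of the calcium-activated potassium channel by which smooth muscle relaxes, also had r = 0.805 with *ACTA2* and 0.690 with *TAGLN*, at a mean signal of 3.39, not far above background. *ACTA2* was most like *ACTG2*, followed by *TRAF3IP2* (0.842), *PAFAH1B1* (0.826), *TIMP1* (0.820), an inhibitor of matrix metalloproteinases, and *VIM* (0.807), the intermediate filament protein of mesenchymal cells.

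*TAGLN* was most like *FLNA* (0.801), the actin cross-linker filamin A, which had 0.887 within LD HIGH and 0.860 within LD LOW. After it came *ACADVL* (0.788), *EIF3K* (0.758), *DCTN4* (0.748) and *TUBB4B* (0.748). *CNN1* was most like *EIPR1* (0.805), *OLA1* (0.804), *LRRFIP1* (0.796), *ADK* (0.793) and *COL5A1* (0.791), a fibrillar collagen chain. The leading genes of *MYL9* were of a different kind: *HARBI1* (0.876), *NTRK3* (0.8288), *BDNF* (0.818), *CD14* (0.816) and *FANCL* (0.815) averaged between 2.02 and 3.59, near the background level. Beside the 25.1% of *MYL9*, the share of other probe sets with r above 0.5 was 9.40% for *ACTG2*, 3.53% for *ACTA2*, 2.26% for *CNN1* and 1.73% for *TAGLN*. The second *ACTG2* probe set was most like *LYN* (0.803), *RNF149* (0.773), *MUC1* (0.770), *SUCLG2* (0.762) and *TCIRG1* (0.735), of which *SUCLG2* averaged 10.2 and the others 2.10 to 2.53.

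Further genes of smooth muscle contraction and its control were taken from a list of 28, of which 20 had a named probe set. Passing an adjusted p of 0.05 were 0 of them, 13 had a higher mean in LD HIGH and 7 a lower one, with a median difference of 0.05. Over all probe sets, 41.3% had a higher mean in LD HIGH. *MYL6*, the essential light chain that pairs with *MYL9*, had the smallest p of the list. Its mean was 8.98 ± 0.30 (SD, n = 10) for LD HIGH against 8.72 ± 0.27 (SD, n = 9) for LD LOW, a difference of 0.26 (limma unadjusted p = 0.0657). *PPP1R12A*, the myosin phosphatase targeting subunit, differed by 0.29 (limma unadjusted p = 0.177). *KCNMB1* differed by 0.08 and *CSRP1*, a LIM protein of smooth muscle, by -0.11.

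Correlations with the listed genes are given from here on as a description with no test, and genes named for them, or for lying at background, were picked after their values were seen. Not all of this list moved with the members. The median r with *ACTG2* over the 20 genes was 0.324, against 0.185 over all probe sets, and that with *TAGLN* 0.116 against 0.0433. *CSRP1* had r of 0.539, 0.565, 0.532 and 0.558 with *ACTG2*, *ACTA2*, *TAGLN* and *MYL9*, and *MYL6* had 0.696, 0.744 and 0.691 with the first 3. *DES* and *VCL*, at mean signals of 12.7 and 11.3, ran the other way. They had -0.574 and -0.398 against *ACTG2* and -0.522 and -0.611 against *CNN1*. *SYNM* and *ROCK1* had -0.406 and -0.471 against *ACTG2* and -0.221 and -0.195 against *CNN1*. In contrast, *TPM1* and *TPM2*, at mean signals of 15.4 and 15.2, had 0.274 and 0.368 with *ACTG2* and 0.246 and 0.692 with *CNN1*. Whether *DES*, *VCL*, *SYNM* (mean 12.4), *TPM1* and *TPM2* were read from smooth muscle cells or from muscle fibres was not tested. *MYOCD*, the transcriptional coactivator of the smooth muscle programme, and *MYLK*, the kinase that phosphorylates *MYL9*, averaged 2.20 and 1.90 and were above background on 0 of the 19 arrays.

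Of 12 paralogs of the members, 9 had a named probe set and 0 passed an adjusted p of 0.05. The cytoplasmic actins *ACTB* and *ACTG1* averaged 12.6 and 15.8, and the cardiac actin *ACTC1*, 7.66. *ACTB* and *ACTG1* had 2 and 6 probe sets, of which that with the highest mean was used. *ACTC1* had the widest spread of the actins, at 7.87 ± 1.04 (SD, n = 10) for LD HIGH against 7.43 ± 1.52 (SD, n = 9) for LD LOW. The r of *ACTA2* was 0.137 with *ACTB*, 0.517 with *ACTG1* and 0.507 with *ACTC1*. Cross-hybridisation of these probe sets with other actins was not tested. *TAGLN2* (mean 6.11) had r = 0.103 with *TAGLN*, and *CNN3* (mean 8.03) had r = 0.681 with *ACTA2*, while *CNN2* was above background on 0 arrays. The non-muscle myosins *MYH9* and *MYH10* averaged 9.24 and 4.58, and *TAGLN3* 5.37.

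Markers of neighbouring cell types were read beside the members, since vessels hold endothelium and pericytes and the sample holds connective tissue. For the counts by direction of these lists, the share over all probe sets was 41.3% with a higher mean in LD HIGH. For their counts by unadjusted p under 0.05, that share was 3.51%. All 5 measured pericyte genes had a higher mean in LD HIGH and 0 passed, with a median difference of 0.16. *PDGFRB*, the receptor that recruits mural cells, differed by 0.16 (limma unadjusted p = 0.211) and *RGS5* and *KCNJ8* both by 0.19 (limma unadjusted p = 0.324 and 0.273). Only *PDGFRB* had r above 0.5 with *ACTG2* (0.613), whereas *RGS5* had 0.0408. Pig means over the 5 genes ran from 6.01 to 6.56 in LD HIGH and from 5.94 to 6.63 in LD LOW.

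Of the 17 endothelial genes, 4 were higher and 13 lower in LD HIGH by their means, with a median difference of -0.05. Among them 0 passed an adjusted p of 0.05, and 1, *CD34*, had an unadjusted p under 0.05 in limma (difference -0.20, p = 0.0491). *VWF* differed by -0.31 and *ENG* by -0.36. Median r of these genes was 0.236 with *ACTG2* and 0.253 with *ACTA2*, against 0.185 and 0.161 over all probe sets, and *CDH5* had r above 0.5 with both actins (0.562 and 0.517). Pig means ran from 4.90 to 5.41 in LD HIGH and from 4.99 to 5.28 in LD LOW. Above background on 0 arrays were 3 of the 17, *KDR*, *TIE1* and *SELE*, which all count among the 13 lower ones.

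The fibroblast and matrix genes had the highest median r with *ACTG2*, *ACTA2* and *CNN1* of the neighbouring cell type lists. Over the 9 measured, it was 0.641 with *ACTG2*, 0.580 with *ACTA2* and 0.529 with *CNN1*, but 0.0785 with *TAGLN*. *COL1A2*, *LUM*, *SPARC*, *THY1* and *FN1* had r of 0.682, 0.671, 0.654, 0.646 and 0.641 with *ACTG2*, while *POSTN*, *DCN* and *FAP* had 0.380, 0.427 and 0.227. *COL3A1*, at a mean signal of 3.56 and so not far above background, ran the other way. It had -0.161 against *ACTG2* and -0.340 against *CNN1*. Of the 9 genes, 8 had a higher mean in LD HIGH, with a median difference of 0.15, and 0 passed. *FAP* differed by 0.37 (limma unadjusted p = 0.0729) and *POSTN* by 0.84 (limma unadjusted p = 0.121). Pig means ran from 7.20 to 8.64 in LD HIGH and from 6.84 to 8.52 in LD LOW. Whether the connective tissue of the samples had a part in the co-variation was not tested.

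Of 5 adipocyte genes, 4 were higher in LD HIGH by their means and 0 passed an adjusted p of 0.05, while 2 had an unadjusted p under 0.05. The lower one, *LEP*, was above background on 0 arrays. *FABP4*, the fatty acid carrier of fat cells, averaged 10.9 ± 0.31 (SD, n = 10) for LD HIGH against 10.3 ± 0.37 (SD, n = 9) for LD LOW (limma unadjusted p = 0.0010), and *ADIPOQ* differed by 1.39 (limma unadjusted p = 0.0219). Their r with *ACTG2* was 0.167 and 0.0522. The 5 macrophage genes were all lower in LD HIGH, with a median difference of -0.16 and 0 passing, and their median r was 0.503 with *ACTA2*, 0.391 with *ACTG2* and 0.517 with *CNN1*. Of the 2 measured nerve genes, 1 was higher and 1 lower, and they had a median r of -0.0533 with *ACTG2*. Of the 4 blood genes, 3 were higher and 1 lower, and 0 passed. *HBB* was the only one above background on all arrays, and its r with *ACTG2*, *ACTA2* and *CNN1* was -0.664, -0.631 and -0.634. Of the 8 skeletal muscle genes, 3 were higher and 5 lower and 0 passed, while 1, *PYGM*, had an unadjusted p under 0.05 (difference -0.12, limma p = 0.0178). The median r of these genes was 0.115 with *ACTG2*, 0.106 with *ACTA2* and -0.0096 with *CNN1*. *TTN* had r of -0.702, -0.567 and -0.615 with *ACTG2*, *ACTA2* and *CNN1*. *TNNT3* went the other way, with 0.556, 0.345 and 0.643, and *MYLPF* had 0.512 with *ACTG2* and 0.257 with *CNN1*. The list had pig means of 15.11 to 15.22 in LD HIGH and 15.15 to 15.25 in LD LOW.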

How the data were processed

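Per the labels, the authors processed porcine Affymetrix arrays with GCRMA, which corrects the background, normalises the arrays and summarises oligonucleotides, and deposited log2 signals per probe set (the version was not given in the sources used here). The study's methods name RMA, and which of them made these values was not settled. A second deposited table holds 4268 of the same probe sets with identical log2 values, 3 of the 6 members among them. After 115 control probe sets were left out, 23999 were tested. Of these, 10069 had 1 symbol in the platform annotation, 198 had several, 13732 had none and 40 of those without were named from the study's probe list. Chromosomes come from the RefSeq annotation of the pig (assembly Sscrofa11.1), matched by Entrez gene identifier.

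The groups were compared by a limma fit (version 3.58.1 under R 4.3.3; mean-variance trend, Benjamini-Hochberg adjustment over all probe sets, threshold 0.05). Correlations were tested by two-sided permutation written in numpy 2.4.6 with ranks from scipy 1.17.1, with exact pairings for the 9 LD LOW pigs. Where a gene had several probe sets, that of the highest mean was used. Named are all members, the 5 genes most like each, genes of each list by p, and others picked from the lists after their values were seen. The code was tested on simulated data. Alternatives were other priors, scalings, level filter, covariates, probe sets and leaving out each pig. The members and lists were chosen with earlier results of these data known. Arrays give no read depth, so their number, 10 and 9, limits the precision. The labels do not say that any pigs shared a batch.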

Additional observations from a re-analysis of the deposited data

Results flagged for a closer look

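In 18 groups of values (6 probe sets, the 3' minus 5' signal, the array median and the *ACTG2* minus *ACTA2* signal, each in LD HIGH and in LD LOW), 4 single pigs lay apart from the rest of their group by Dixon's criterion, where chance would be met in about 1 group in 20, or 0.9 of the 18. *CNN1* in LD LOW pig 1444 was 5.66, where the other 8 pigs had 8.46 ± 0.59 (SD). The 3' minus 5' signal of the same pig was 1.61, where the other 8 had 1.003 ± 0.15 (SD). *MYL9* in LD HIGH pig 1536 was 6.95, where the other 9 had 6.02 ± 0.23 (SD). The array median of the same pig was 3.60, where the other 9 had 3.48 ± 0.03 (SD). In both cases the gene and the array measure stood apart in 1 and the same pig, and the part of the array measure in the gene's value was not tested.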

How the results depend on the processing

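The count of 0 probe sets called held under all 27 alternatives, and the median difference of the 5 genes stayed positive, at 0.06 to 0.29. *ACTG2*, *ACTA2* and *TAGLN* were higher in LD HIGH under every alternative run, and none passed. Leaving out single pigs moved them to 0.06 (without 1444) to 0.43 (without 8697), 0.08 (without 1533) to 0.29 and 0.28 to 0.47, and *ACTG2* was 0.09 without 1533 and 0.12 without 1536, *ACTA2* 0.09 without 1444. *CNN1* changed sign with quantile normalisation (-0.020) and with the 3' minus 5' signal as a covariate (-0.10; -0.15 without the actin control), and ran from -0.29 to 0.20 on leaving out single pigs. The same left *MYL9* between -0.13 and 0.021, the second *ACTG2* probe set between -0.15 and 0.019, and *ACTG2* minus *ACTA2* between -0.029 and 0.17. With the mean of all probe sets per gene, the last was -0.10 (exact permutation p = 0.470).

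Mean r was 0.499 to 0.622 and 6 to 8 pairs passed when 1 pig was left out, 0.270 and 3 with the other *ACTG2* probe set, and 0.350 and 1 without pigs 1444, 1533 and 1536. The other *ACTG2* probe set gave -0.36 with *TAGLN* and -0.016 with *CNN1*. *TAGLN* and *CNN1* turned to -0.087 with the 3' minus 5' signal of EF1A and GAPDH removed and to -0.062 without those 3 pigs, where *CNN1* and *MYL9* had -0.0063. *TAGLN* and *MYL9* passed with group means removed (r = 0.502, adjusted permutation p = 0.0355) and without pig 1903, 1539 or 1918 (0.489, 0.542 and 0.510). Added after seeing the data were the other *ACTG2* probe set, the settings without the actin control and those without the 3 pigs. The cause of these changes was not tested. No paired analysis was possible because the replicate numbers are pig numbers and no pig is in both groups.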
